A study of Homo sapiens with 12 samples.

Results

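The 10 genes described here make up the HLA class II route of antigen presentation: HLA-DRA, HLA-DRB1, HLA-DPA1, HLA-DPB1, HLA-DQA1, HLA-DQB1, HLA-DMA, HLA-DMB, CD74 and CIITA. They were chosen by name, and each had 1 row among the 61806 rows of the LP-1 table and 1 among the 19130 rows of the U266 table. RNA was sequenced from LP-1 and U266, 2 established human multiple myeloma lines of wild-type genotype per the labels, kept in RPMI-1640 medium with serum. In each line, cells given dihydroartemisinin (DHA), an antimalarial endoperoxide drug, at its IC50 for 12 h were set against cells given an equal amount of the solvent DMSO for 12 h. Each of the 4 groups had 3 libraries. The concentration behind the IC50 and the clonality of the lines are not given in the labels. The labels do not say that replicates came from separate cultures, so each p-value reflects the spread between these libraries alone, which may be technical.

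Class II molecules are paired alpha and beta chains (HLA-DR, HLA-DP and HLA-DQ) that carry peptides from endosomes to the surface, where CD4 T cells read them. CD74, the invariant chain, escorts the pairs out of the endoplasmic reticulum and fills their groove, and HLA-DM, a pair of HLA-DMA and HLA-DMB, later swaps the last CD74 fragment for peptide. CIITA is the coactivator that the class II genes, the HLA-DM genes and CD74 share. It sits on a promoter module whose X box binds the RFX complex and whose Y box, an inverted CCAAT, binds NF-Y. B cells express the route strongly and normal plasma cells largely shut it off.

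The X and Y boxes are the shared regulatory sequence of these genes, so the stretch that holds a core of each is shown for the 5 members in which RefSeq (GRCh38.p14) gave both cores in the gene's own direction and outside exons. Each is written 5′ to 3′ on the gene's strand, with the X-like core AGNNAC and the Y-like core (ATTGG, or CCAAT on the other strand) in capitals.
HLA-DRB1: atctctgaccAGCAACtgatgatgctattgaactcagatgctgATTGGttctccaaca
HLA-DQA1: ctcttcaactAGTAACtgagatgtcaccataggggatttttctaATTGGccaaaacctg
HLA-DQB1: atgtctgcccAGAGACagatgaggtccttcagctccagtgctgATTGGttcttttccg
HLA-DMA: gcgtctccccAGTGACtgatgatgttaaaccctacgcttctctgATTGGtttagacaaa
CD74: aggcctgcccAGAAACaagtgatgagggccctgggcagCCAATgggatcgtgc
HLA-DRB1 lies on the minus strand at chr6:32589880-32589937, HLA-DQA1 on the plus strand at chr6:32637294-32637352, HLA-DQB1 on the minus strand at chr6:32666731-32666788, HLA-DMA on the minus strand at chr6:32953162-32953220 and CD74 on the minus strand at chr5:150412949-150413001. The HLA-DQA1, HLA-DQB1 and HLA-DMA stretches fall within introns of longer GENCODE v29 transcripts of those genes, and the other stretches fall just upstream of the annotated gene.

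The cores of these stretches were similarly spaced. From the first base of AGNNAC to the first base of ATTGG there were 33 bases in HLA-DRB1 and HLA-DQB1 and 34 bases in HLA-DQA1 and HLA-DMA, and CD74 had 28 bases and the Y-like core on the other strand. In the 250 bases before the RefSeq start, 8 members had an entry, and HLA-DRA and CIITA had none. Of these 8, 7 held ATTGG on either strand, against 32.01% of 35116 promoter records. All 8 held AGNNAC on either strand, as did 80.83% of the records, so this core alone was common. An AGNNAC with ATTGG or CCAAT 20 to 40 bases downstream of it, on the strand that reads AGNNAC, stood in 6 of the 8, HLA-DPB1 included on the strand opposite the gene, against 5.485% of all records. HLA-DMB held both cores but not in this order and spacing. On the gene's strand an AGNNAC stood 66 bases and the Y-like core 22 bases before the start, in this order but farther apart than the window. An AGNNAC on the other strand stood 50 bases before the start, in the wrong order for that strand. HLA-DPA1, with 2 recorded starts, held no ATTGG. Matches of AGNNAC on the 2 strands can overlap each other. The motifs and the spacing were set after these sequences had been viewed, the genes share ancestry, and a match is a description of letters, not evidence of binding.

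**Figure D1:**
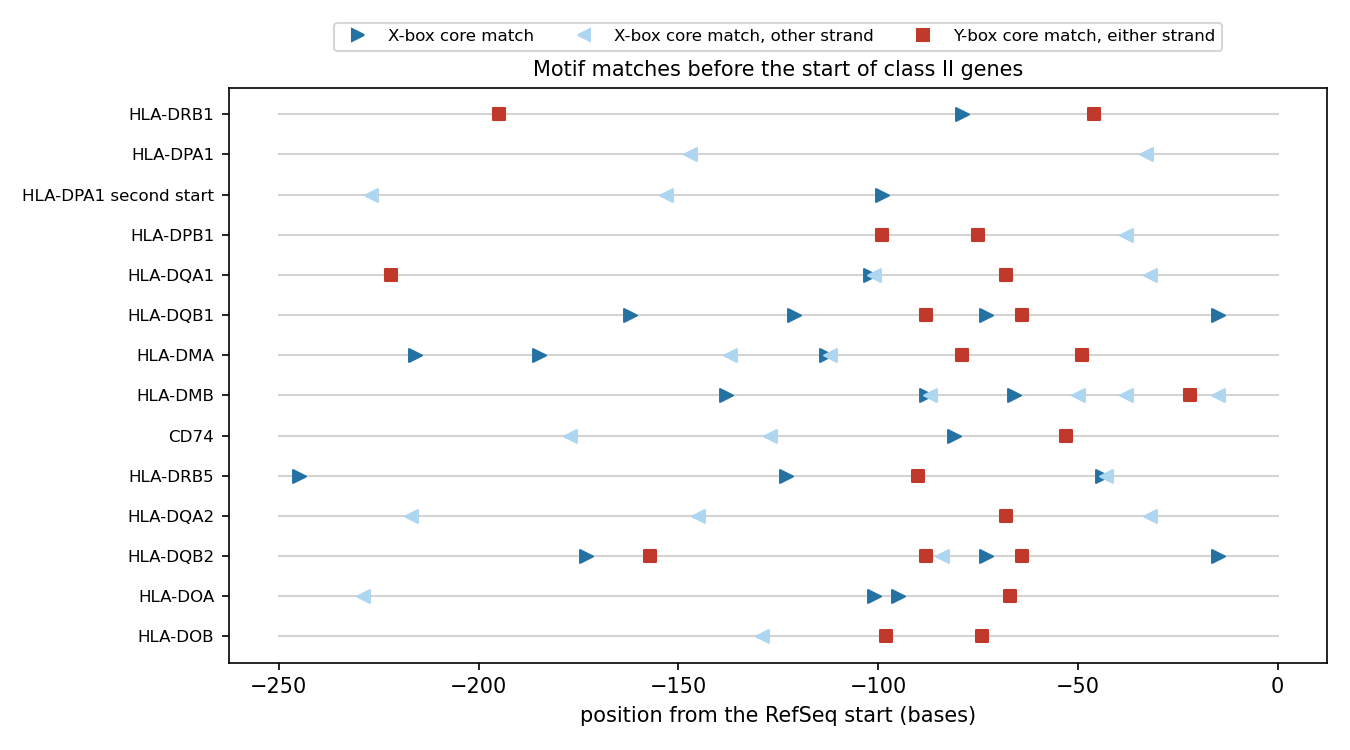
Matches to the X-like core (triangles, the paler ones on the other strand) and the Y-like core (squares, either strand) in the 250 bases before each RefSeq start of class II members and relatives; the x axis is the distance in bases from the start. A Y-like core 20 to 40 bases downstream of an X-like core, on the strand of the X-like core, is seen in 6 of the 8 members with an entry, and HLA-DPA1 has no Y-like core at either start.

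Values are FPKM, fragments divided by transcript length and by library depth, as the authors deposited them. A gene was tested in a line when it reached 1 FPKM in at least 3 of the 6 libraries, with limma on log2(FPKM + 1), a scale that understates changes of low genes. A gene was called to rise or fall when its Benjamini-Hochberg adjusted p over all tested genes was under 0.05. Recovered depth was 13440000 to 17510000 reads in LP-1 libraries and 10330000 to 21840000 reads in U266 libraries. Plasma cell markers were present in both lines (summed FPKM 931 to 943 with DHA and 996 to 1358 with DMSO in LP-1; 706 to 773 with DHA and 1045 to 1064 with DMSO in U266), although CD38 stayed under 1 FPKM in U266 and SLAMF7 in LP-1. The B cell gene MS4A1 and the T cell gene CD3D were under 1 FPKM in all LP-1 libraries and, apart from DHA replicate 3, in the U266 libraries. Other markers of these lists did reach the filter in U266: CD79B, 1 of 8 B cell markers, and CD8A, 1 of 6 T and NK markers. Single libraries stood apart in both lines. In LP-1 DMSO replicate 3, the 1137 genes with at least 10 kb of exon sequence had a median log2 value 0.43 below the other DMSO libraries (difference -0.43). In U266 DHA replicate 3, 2631 of 8311 genes under 1 FPKM in the other libraries of that line reached 1 FPKM, against 5 to 30 genes in each other U266 library, CD3D at 1.90 FPKM among them.

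DHA-treated cells had lower class II RNA than DMSO-treated cells in both lines. In LP-1, 6 of the 8 members tested fell and none rose, where 40.2% of all 12514 tested genes were called, 20.2% lower and 20% higher with DHA. In U266, 9 of 10 fell and none rose, where 40.7% of 10422 genes were called, 19.6% lower and 21.1% higher. All DHA libraries lay below all DMSO libraries for 8 of the 10 members in LP-1, against 28.6% of tested genes, and for 9 of the 10 in U266, against 23.9%. No member had all DHA libraries above all DMSO libraries, as 30.2% of tested genes had in LP-1 and 27.6% in U266. The 2 LP-1 members below the filter, HLA-DQA1 and HLA-DQB1, are among those 8. The median log2 change of the tested members was -0.89 in LP-1, beside 0.01 over all tested genes, and -0.43 in U266, beside 0.02. Summed over the 10 genes, LP-1 had 851 to 861 FPKM with DHA and 1542 to 1665 FPKM with DMSO, and U266 had 885 to 931 FPKM with DHA and 1063 to 1107 FPKM with DMSO. HLA-DRA and CD74 made up most of these sums. Over all genes, LP-1 libraries summed to 271300 to 274100 FPKM with DHA and 306700 to 325600 FPKM with DMSO. The U266 libraries summed to 231100 to 234200 FPKM with DHA and 228500 to 237700 FPKM with DMSO. In these bulk samples, fewer cells that express the genes and less RNA per cell cannot be told apart. With all 12 libraries sharing 1 estimate of the spread, 4 of the 8 members in that fit fell in U266, and HLA-DRB1, HLA-DPB1 and CIITA were no longer called (limma adjusted p = 0.313, 0.0896 and 0.152).

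**Figure D2:**
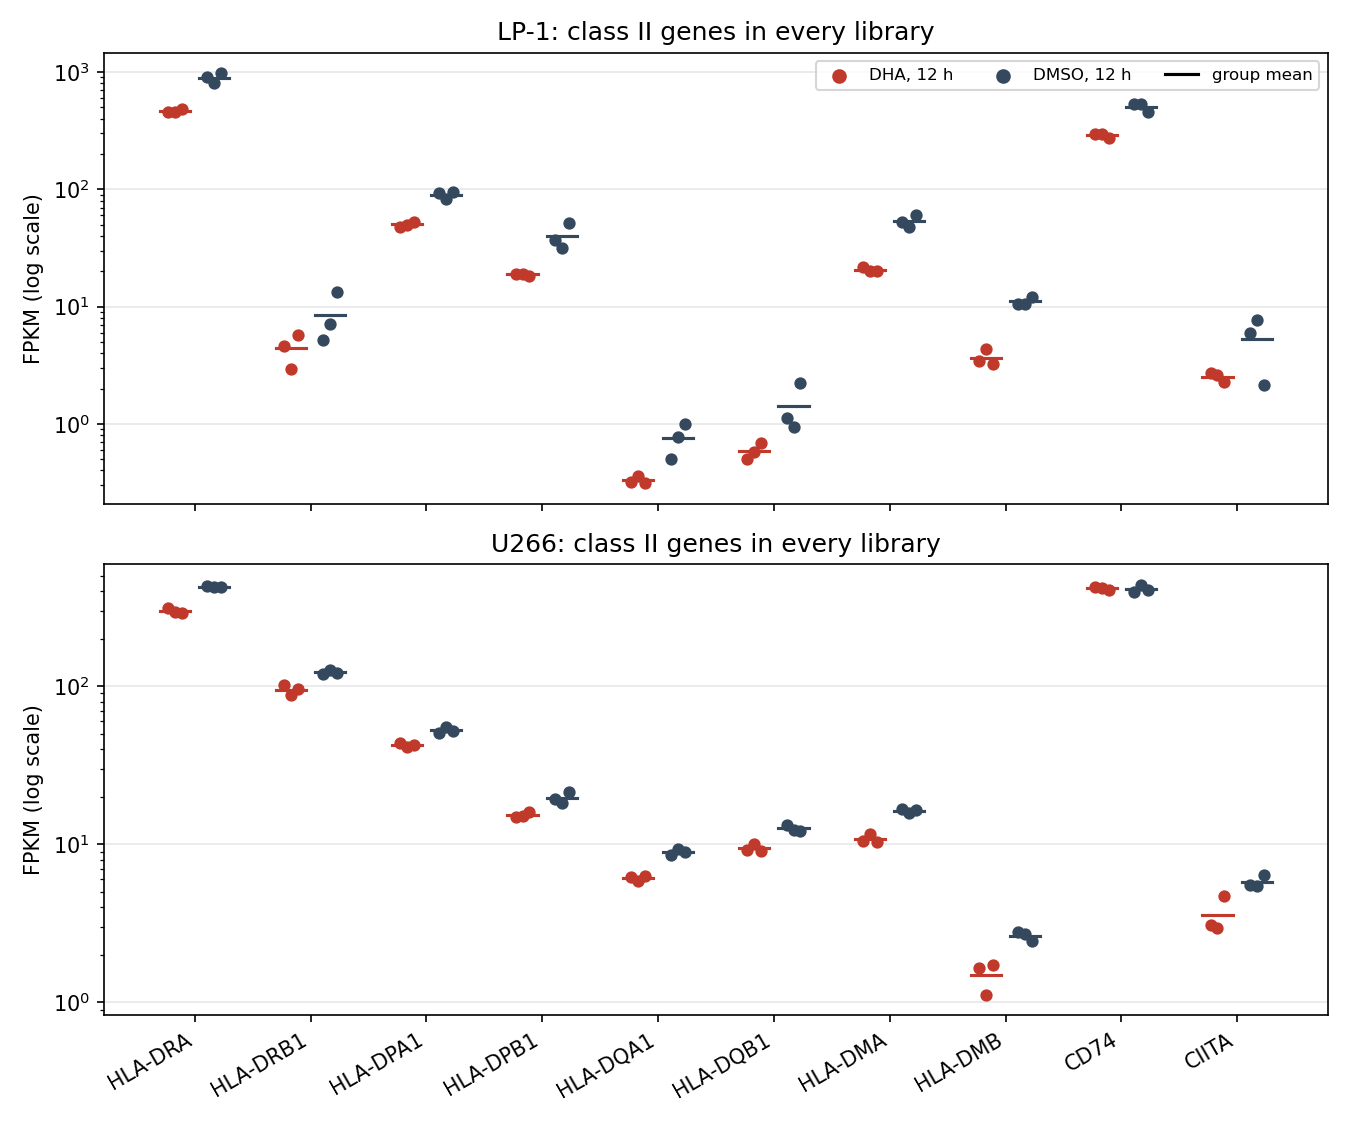
FPKM of the 10 class II genes in every library (points, log axis) with the group mean (bar), LP-1 above and U266 below, DHA in red to the left of DMSO in dark blue. DHA points lie below DMSO points for all genes except HLA-DRB1 and CIITA in LP-1 and CD74 in U266, whose groups overlap.

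HLA-DRA, the alpha chain of every HLA-DR molecule (chr6:32439842-32445046, plus strand, GRCh38), fell in both lines. LP-1 had 453, 459.6 and 482 FPKM with DHA, against 906, 815 and 973 FPKM with DMSO. U266 had 314, 295 and 291 FPKM with DHA, against 430.5, 422 and 426 FPKM with DMSO. In both lines every DHA library was below every DMSO library, by means 48.2% lower in LP-1 and 29.6% lower in U266. The log2 change was -0.95 ± 0.11 (SE) in LP-1 (limma, adjusted p = 0.00165, n = 3 against 3; -0.45 and adjusted p = 0.00428 under quantile normalization) and -0.51 ± 0.05 in U266 (limma, adjusted p = 3.9e-05).

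HLA-DRB1 encodes the main beta chain that pairs with HLA-DRA (chr6:32578769-32589848, minus strand). In LP-1 it was low, with 4.61, 2.91 and 5.68 FPKM with DHA and 5.14, 7.08 and 13.3 FPKM with DMSO, from 63 to 251 recovered reads. Those groups overlapped, since DHA replicate 3 lay above DMSO replicate 1, and the log2 change of -0.76 (95% interval -1.58 to 0.06) did not pass the test (limma adjusted p = 0.120). Without DMSO replicate 3, its highest library, the change was -0.42 (limma adjusted p = 0.177). In U266 it had 101, 87.9 and 96.3 FPKM with DHA, against 119, 127 and 122 FPKM with DMSO, with no overlap. There it fell by 0.37 ± 0.06 on the log2 scale (limma, adjusted p = 0.000693). HLA-DRB genes differ between haplotypes and share near-identical exons, so how reads were split among them is uncertain. Its relative HLA-DRB5, with 0.23 to 0.39 FPKM with DHA and 0.36 to 0.89 FPKM with DMSO in LP-1, was below the filter there. In U266, HLA-DRB5 had 54.1, 52.5 and 49.7 FPKM with DHA, against 63.9, 68.6 and 60.2 FPKM with DMSO, and fell by 0.30 on the log2 scale (limma, adjusted p = 0.00247).

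The HLA-DP pair fell together in both lines. HLA-DPA1, the alpha chain (chr6:33064569-33080775, minus strand), had 48.2, 49.5 and 52.8 FPKM with DHA and 92.3, 82.4 and 94.99 FPKM with DMSO in LP-1. It had 43.6, 41.6 and 42.6 FPKM with DHA and 50.7, 55.6 and 52.2 FPKM with DMSO in U266. No library of one group reached the other, and the log2 changes were -0.83 ± 0.09 in LP-1 (limma, adjusted p = 0.00107) and -0.30 ± 0.05 in U266 (limma, adjusted p = 0.000852). HLA-DPB1, the beta chain (chr6:33075926-33087201, plus strand), had 19.0, 19.1 and 18.3 FPKM with DHA, against 36.6, 31.4 and 52.1 FPKM with DMSO in LP-1, where the DHA libraries were tight and DMSO replicate 3 was the highest. In U266 it had 14.9, 15.1 and 16.1 FPKM with DHA, against 19.4, 18.3 and 21.5 FPKM with DMSO. Again the groups did not overlap, and HLA-DPB1 fell by 1.02 ± 0.18 in LP-1 (limma, adjusted p = 0.00602) and by 0.34 ± 0.07 in U266 (limma, adjusted p = 0.00266) on the log2 scale. The 2 genes lie head to head on opposite strands and overlap, and whether counting used strand is not stated in the labels. The ratio of HLA-DPA1 to HLA-DPB1 in FPKM was 2.53, 2.59 and 2.89 with DHA and 2.52, 2.63 and 1.82 with DMSO in LP-1, and the groups overlapped (two-sided exact permutation test, p = 0.4; 0.6 adjusted over the 6 ratios computed).

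The HLA-DQ pair was low in LP-1 and fell in U266. HLA-DQA1, the alpha chain (chr6:32628179-32647062, plus strand), had 0.32, 0.36 and 0.31 FPKM with DHA and 0.50, 0.77 and 0.99 FPKM with DMSO in LP-1. HLA-DQB1, the beta chain (chr6:32659467-32668383, minus strand), had 0.50, 0.57 and 0.68 FPKM with DHA and 1.13, 0.94 and 2.21 FPKM with DMSO there. Both had every DHA library below every DMSO library in LP-1, at 30 to 167 recovered reads per library, but both were under the filter. When tested with no filter they did not pass (limma adjusted p = 0.103 and 0.140). In U266, HLA-DQA1 had 6.24, 5.89 and 6.29 FPKM with DHA, against 8.57, 9.33 and 8.96 FPKM with DMSO, and fell by 0.48 ± 0.07 on the log2 scale (limma, adjusted p = 0.000406). HLA-DQB1 had 9.22, 10.1 and 9.01 FPKM with DHA, against 13.3, 12.4 and 12.1 FPKM with DMSO in U266, and fell by 0.38 ± 0.07 (limma, adjusted p = 0.00133). Neither pair of groups overlapped in U266. HLA-DQA2, a close copy of HLA-DQA1 with which reads may be shared, was the higher of the 2 in LP-1, with 7.28, 6.43 and 7 FPKM with DHA and 17.8, 11.7 and 25.1 FPKM with DMSO. It fell there by 1.22 on the log2 scale (limma, adjusted p = 0.0102), while in U266 it had 1.97, 3.10 and 1.56 FPKM with DHA and 2.21, 1.59 and 2.53 FPKM with DMSO and did not pass (limma adjusted p = 0.921). HLA-DQB1 overlaps its antisense gene HLA-DQB1-AS1, so reads of the 2 cannot be told apart here.

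HLA-DM, the peptide editor, had the largest log2 falls among the LP-1 members. HLA-DMA (chr6:32948613-32969094, minus strand, overlapping part of BRD2) had 21.8, 20.04 and 19.9 FPKM with DHA in LP-1, against 52.2, 47.6 and 60.3 FPKM with DMSO. It had 10.5, 11.5 and 10.4 FPKM with DHA in U266, against 16.6, 15.7 and 16.4 FPKM with DMSO. HLA-DMA thus had no overlap between groups in either line, with means 61.4% lower in LP-1 and 33.3% lower in U266. The log2 changes were -1.33 ± 0.10 (limma, adjusted p = 0.000387) and -0.54 ± 0.06 (limma, adjusted p = 7.7e-05). HLA-DMB (chr6:32934629-32941070, minus strand) had 3.43, 4.32 and 3.26 FPKM with DHA in LP-1, against 10.4, 10.6 and 12.2 FPKM with DMSO. In U266 it had 1.64, 1.12 and 1.73 FPKM with DHA, against 2.79, 2.69 and 2.46 FPKM with DMSO, from 75 to 274 recovered reads. HLA-DMB means were 66.8% lower in LP-1 and 43.5% lower in U266, with no overlap in either. It fell by 1.37 ± 0.11 in LP-1 (limma, adjusted p = 0.000462) and by 0.56 ± 0.13 in U266 (limma, adjusted p = 0.00819; -0.84 with voom on recovered reads) on the log2 scale. Of all tested genes, 1.44% had a lower log2 change than HLA-DMA in LP-1 and 1.21% a lower one than HLA-DMB.

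In LP-1, HLA-DMA was lower relative to HLA-DRA in every DHA library. Its FPKM divided by that of HLA-DRA was 0.0482, 0.0436 and 0.0414 with DHA, against 0.0577, 0.0584 and 0.0620 with DMSO. The groups did not overlap, at the smallest p that 3 against 3 allows (two-sided exact permutation test, p = 0.1; 0.3 adjusted over 6 ratios). In U266 the same ratio was 0.0336, 0.0392 and 0.0357 with DHA and 0.0387, 0.0372 and 0.0385 with DMSO, and the groups overlapped (two-sided exact permutation test, p = 0.4). HLA-DO, a relative of class II that inhibits HLA-DM, is made of HLA-DOA and HLA-DOB. In LP-1, HLA-DOA had 10.5, 11.2 and 11.2 FPKM with DHA, against 32.3, 30.4 and 23.4 FPKM with DMSO, and HLA-DOB had 1.73, 1.65 and 1.43 FPKM with DHA, against 5.60, 5.19 and 5.83 FPKM with DMSO. Both fell, by 1.30 and 1.33 on the log2 scale (limma, adjusted p = 0.000825 and 0.000245). In U266, HLA-DOA had 1.69, 1.96 and 2.57 FPKM with DHA and 2.74, 2.45 and 2.65 FPKM with DMSO and did not pass (limma adjusted p = 0.167; 0.0214 without DHA replicate 3), and HLA-DOB was under the filter. Of the 9 relatives listed, 3 were tested in each line: all 3 fell in LP-1 and HLA-DRB5 alone fell in U266. Over all tested genes, 20.2% fell in LP-1 and 19.6% in U266.

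CD74, the invariant chain (chr5:150401637-150412929, minus strand), fell in LP-1 and was not called in U266. LP-1 had 298, 295 and 276 FPKM with DHA, against 531, 539 and 454 FPKM with DMSO. U266 had 427, 416 and 407 FPKM with DHA and 397, 439 and 404 FPKM with DMSO. The LP-1 groups did not overlap, while in U266 the DHA libraries lay inside the range of the DMSO libraries. In LP-1, CD74 fell by 0.80 ± 0.11 on the log2 scale, with a mean 43.0% lower (limma, adjusted p = 0.00246; -0.41 and adjusted p = 0.111 under quantile normalization). In U266 the log2 change was 0.01 (95% interval -0.11 to 0.14; limma adjusted p = 0.884), its sign turned under TMM-style scaling (-0.01), and 48.3% of tested genes had a lower change.

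In U266, CD74 was higher relative to HLA-DRA in every DHA library. CD74 FPKM divided by HLA-DRA FPKM was 1.36, 1.41 and 1.40 with DHA, against 0.922, 1.04 and 0.948 with DMSO. The groups did not overlap, and the means differed by 1.43 times, at the smallest p that 3 against 3 allows (two-sided exact permutation test, p = 0.1; 0.3 adjusted over 6 ratios). In LP-1 the ratio was 0.658, 0.642 and 0.574 with DHA and 0.587, 0.661 and 0.467 with DMSO, and the groups overlapped (two-sided exact permutation test, p = 0.7).

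CIITA, the shared coactivator (chr16:10866222-10943021, plus strand, overlapping DEXI), was expressed at a few FPKM in both lines. U266 had 3.09, 2.94 and 4.73 FPKM with DHA, against 5.50, 5.45 and 6.43 FPKM with DMSO. DHA replicate 3 was the highest of its group and still below every DMSO library. CIITA fell in U266 by 0.59 ± 0.14 on the log2 scale (limma, adjusted p = 0.00780; -0.76 and adjusted p = 0.000214 without DHA replicate 3). LP-1 had 2.70, 2.59 and 2.26 FPKM with DHA and 5.92, 7.67 and 2.13 FPKM with DMSO. DMSO replicate 3 was the lowest of all 6 LP-1 libraries and the other DMSO libraries were above every DHA library. The log2 change of -0.71 (95% interval -1.57 to 0.16) did not pass (limma adjusted p = 0.160). Without DMSO replicate 3 it was -1.14 (limma adjusted p = 0.000465). CIITA has 20757 bases of exon sequence, within the class of long genes that was low in that library, whose part in the CIITA value was not tested. HLA-DRA was highest, 973 FPKM, in this same library, where the 2587 genes with at most 2 kb of exon sequence had a median log2 value 0.21 above the other DMSO libraries. HLA-DRA has 1280 bases of exon sequence, and HLA-DRB1, also highest among LP-1 libraries in this one, has 1229. The part of this tilt in either value was not tested.

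**Figure D3:**
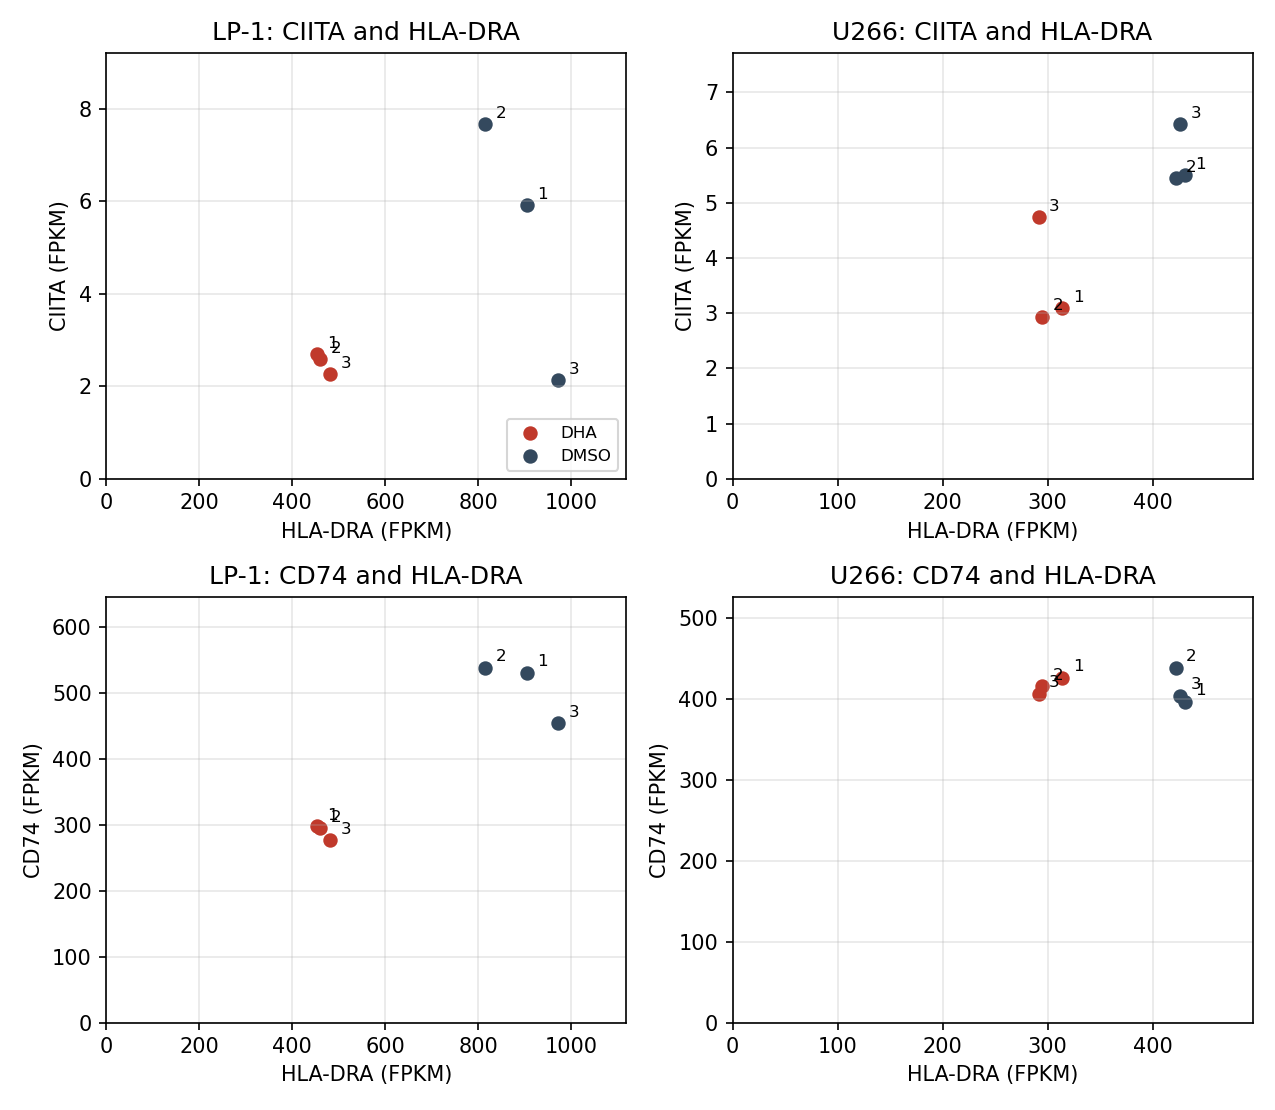
CIITA (top) and CD74 (bottom) plotted against HLA-DRA in FPKM, LP-1 left and U266 right, with each library numbered, DHA in red and DMSO in dark blue. LP-1 DMSO replicate 3 has the highest HLA-DRA, 973 FPKM, and a CIITA value of 2.13 FPKM; in U266 the groups overlap in CD74 while HLA-DRA separates them.

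The DHA effect was compared between the lines with an interaction contrast over the 8916 genes tested in both, LP-1 change minus U266 change. The tables were made separately, so levels were not compared across them, and the dose in each line is not given. Of the 8 members in this fit, 6 had a lower change in LP-1 and none a higher one, where 34.5% of genes were called, 16% lower and 18.5% higher in LP-1. The 6 were CD74 with a difference of -0.82 ± 0.12 (SE; adjusted p = 0.000476), HLA-DMB with -0.82 ± 0.16 (adjusted p = 0.00286), HLA-DMA with -0.78 ± 0.12 (adjusted p = 0.000551), HLA-DPB1 with -0.68 ± 0.20 (adjusted p = 0.0198), HLA-DPA1 with -0.52 ± 0.10 (adjusted p = 0.00228) and HLA-DRA with -0.44 ± 0.12 (adjusted p = 0.0145), all by limma. HLA-DRB1 differed by -0.39 (95% interval -1.17 to 0.39; limma adjusted p = 0.418) and CIITA by -0.12 (95% interval -1.01 to 0.77; limma adjusted p = 0.840). For CIITA the difference was -0.56 without LP-1 DMSO replicate 3 (limma adjusted p = 0.0341). Under quantile normalization the HLA-DRA difference was 0.00176 (limma adjusted p = 0.990) and that of CD74 was -0.50 (limma adjusted p = 0.0557).

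**Figure D4:**
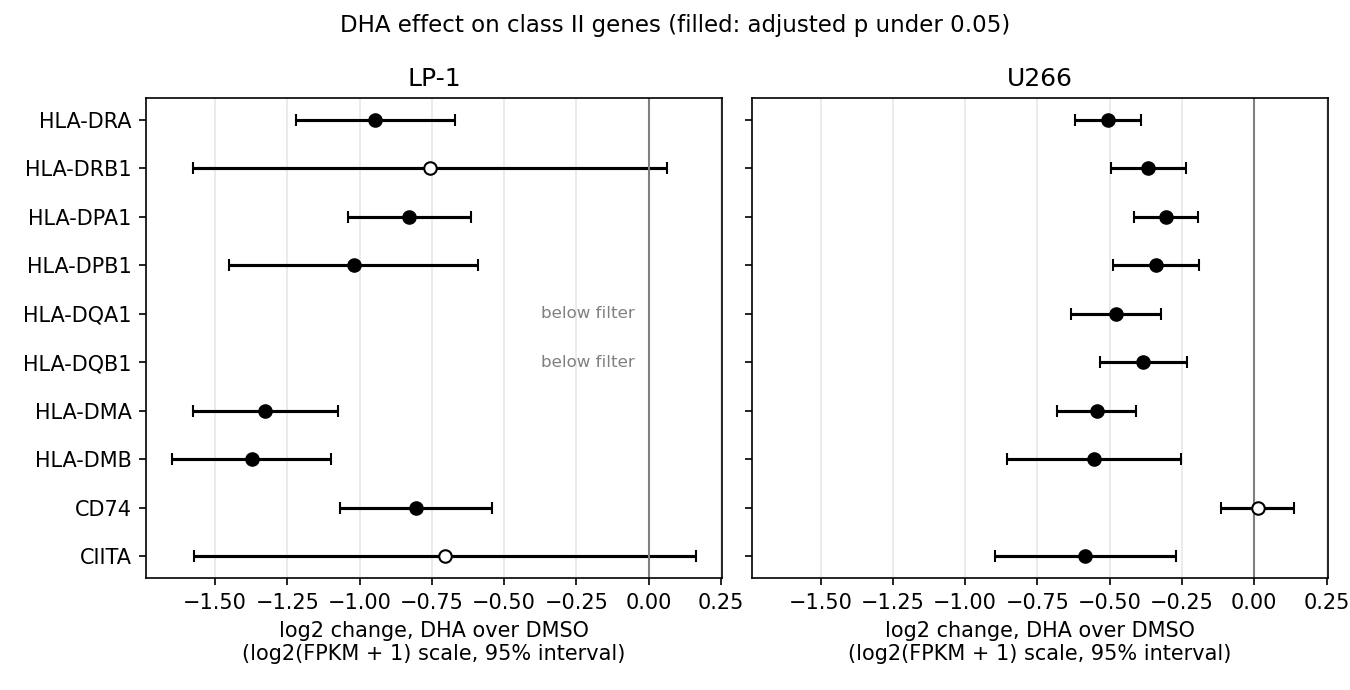
Log2 change, DHA over DMSO, of each member with its 95% interval on the log2(FPKM + 1) scale, LP-1 left and U266 right; filled points have a limma adjusted p under 0.05. In LP-1 the tested members lie between -1.37 and -0.71, and in U266 all but CD74 lie between -0.59 and -0.30.

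Genes around CIITA moved in both directions. Of 12 genes of the CIITA enhanceosome and its coactivators, 5 rose, 2 fell and 5 did not pass in LP-1, and 1 rose, 2 fell and 9 did not pass in U266. Over all tested genes, 20% rose and 20.2% fell in LP-1, and 21.1% rose and 19.6% fell in U266. RFX5, the DNA-binding subunit of the RFX complex that binds the X box, had 72.6, 72.3 and 73.5 FPKM with DHA and 96.5, 93.9 and 71.2 FPKM with DMSO in LP-1 (log2 change -0.24, limma adjusted p = 0.171; -0.38 and adjusted p = 0.000698 without DMSO replicate 3). Its log2 change in U266 was -0.09 (limma adjusted p = 0.154). Of its partners, RFXAP rose by 0.41 and RFXANK fell by 0.73 in LP-1 (limma, adjusted p = 0.0114 and 0.0159), and neither passed in U266 (0.16 and -0.12). Of the NF-Y subunits that bind the Y box, NFYC rose by 0.65 and NFYB fell by 0.38 in LP-1, and NFYA fell by 0.47 in U266 (limma, adjusted p = 0.00588, 0.0450 and 0.00109). CREB1, which joins the X2 part of the module, had changes of 0.28 in LP-1 and 0.19 in U266 that did not pass (limma adjusted p = 0.0899 and 0.0565). The acetyltransferase genes EP300 and CREBBP rose in LP-1 by 1.35 and 1.32 (limma, adjusted p = 0.0346 and 0.0195). CREBBP had 15.0, 14.9 and 12.6 FPKM with DHA and 5.90, 8.01 and 2.60 FPKM with DMSO there, lowest in DMSO replicate 3, and rose by 0.27 in U266 (limma, adjusted p = 0.0183). The LP-1 counts changed when 1 library was left out. Without any 1 of the DHA replicates, 1 gene rose and at most 1 fell. Over all genes, 1244 to 1274 rose and 1535 to 1578 fell in those runs, against 2504 and 2523 with all libraries. The EP300 and CREBBP changes were 1.31 to 1.42 and 1.27 to 1.39 there. Without DMSO replicate 1, 3 rose and none fell, beside 1742 and 1511 over all genes. Without DMSO replicate 3, 5 rose and 4 fell, beside 3488 and 3257 over all genes. CREBBP in U266 was not called without DHA replicate 2, DMSO replicate 1 or DMSO replicate 2 (limma adjusted p = 0.0559 to 0.0681).

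The interferon gamma route, which induces CIITA in part through IRF1, showed no common direction: 2 of 8 tested genes rose and 3 fell in LP-1, and 3 rose and 3 fell in U266. The shares over all tested genes were 20% risen and 20.2% fallen in LP-1, and 21.1% and 19.6% in U266. In LP-1, none rose and 2 fell without any 1 of the DHA replicates, and 1 rose and 2 fell without DMSO replicate 1. Fewer of all genes were also called in these runs, as given above. IRF1 rose by 0.41 in LP-1 and by 0.48 in U266 (limma, adjusted p = 0.0130 and 0.000981), and in LP-1 it was not called without any 1 of the DHA replicates (limma adjusted p = 0.0550 to 0.0626). The receptor chain gene IFNGR2 fell in both lines, by 0.74 and 0.48 (limma, adjusted p = 0.00375 and 0.000973).

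Among B lineage regulators, 3 rose and 4 fell of 10 tested in LP-1, and 2 rose and 6 fell of 10 in U266. Over all tested genes, 20% rose and 20.2% fell in LP-1, and 21.1% rose and 19.6% fell in U266. In LP-1, 2 rose and 2 fell without DMSO replicate 1 or any 1 DHA replicate, runs in which fewer of all genes were called. PRDM1 encodes Blimp-1, which silences CIITA in plasma cells. It had 40.6, 39.9 and 38.1 FPKM with DHA, against 26.5, 29.7 and 18.1 FPKM with DMSO in LP-1, and rose by 0.68 (limma, adjusted p = 0.0236; 0.0524 to 0.0813 without DMSO replicate 1 or any 1 DHA replicate). In U266, PRDM1 fell by 0.19 (limma, adjusted p = 0.0287; 0.0538 to 0.115 without DHA replicate 1 or 3 or DMSO replicate 1 or 3). IRF4, a plasma cell transcription factor, had 260.0, 254 and 244 FPKM with DHA, against 83.5, 92.1 and 64.2 FPKM with DMSO in LP-1, and rose by 1.66 (limma, adjusted p = 0.000513). It had 180.0, 186 and 171 FPKM with DHA and 186, 174 and 177 FPKM with DMSO in U266 (limma adjusted p = 0.998). POU2AF1, a B cell coactivator of octamer promoters, fell by 0.88 in both lines (limma, adjusted p = 0.00225 in LP-1 and 3.05e-07 in U266), and TCF3 by 0.67 in both (limma, adjusted p = 0.00335 and 2.14e-05).

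In the endosomal processing group, 3 of 7 tested genes fell and none rose in LP-1, and 2 fell and 2 rose of 8 in U266. All 12 genes of the group had a row in LP-1, and 10 of them had one in U266. The shares over all tested genes were 20.2% fallen and 20% risen in LP-1, and 19.6% and 21.1% in U266. LGMN, an asparaginyl endopeptidase that cuts CD74, had 99.5, 97.6 and 97.8 FPKM with DHA, against 440.0, 413 and 499.8 FPKM with DMSO in LP-1. It fell there by 2.18 on the log2 scale (limma, adjusted p = 9.04e-05) and in U266 by 0.23 (limma, adjusted p = 0.0262; 0.0771 to 0.102 without DHA replicate 2, DMSO replicate 1 or DMSO replicate 3). CTSB, a cathepsin, fell by 1.45 in LP-1 (limma, adjusted p = 0.000116). CTSL, 1 of the 3 called falls, had 0.84, 0.77 and 0.84 FPKM with DHA and 1.19, 1.22 and 1.46 FPKM with DMSO in LP-1. It met the filter only through the DMSO libraries, so its entry into the test favoured a fall. Its log2 change was -0.33 (limma, adjusted p = 0.0366), and it was not called with no filter (limma adjusted p = 0.107). Nor was it called under quantile normalization or without any 1 DHA replicate (limma adjusted p = 0.0892 to 0.127). In LP-1, 2 genes of the group fell under quantile normalization or without any 1 library, and 1 rose without DMSO replicate 3. CTSS, which makes the last cut in CD74 in B cells, was at most 0.09 FPKM in LP-1. In U266, CTSS had 0.939, 0.706 and 2.05 FPKM with DHA and 1.91, 2.13 and 2.38 FPKM with DMSO (log2 change -0.54, limma adjusted p = 0.0599; -0.78 and adjusted p = 0.000721 without DHA replicate 3). SPPL2A, the membrane protease that clears the CD74 stub, rose by 0.51 in U266 (limma, adjusted p = 0.000346) and had a change of 0.19 in LP-1 (limma adjusted p = 0.105). IFI30, the endosomal thiol reductase, was under the filter in both lines. MARCHF1 and MARCHF8, ligases that turn over class II at the surface, did not pass in LP-1 (limma adjusted p = 0.973 and 0.621).

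HLA class I and its peptide loading genes were set beside the class II genes. In LP-1, 11 of 18 fell and 1 rose, with a median log2 change of -0.81, and in U266, 5 of 18 fell and none rose, with a median of -0.08. Over all tested genes, 20.2% fell and 20% rose in LP-1, and 19.6% fell and 21.1% rose in U266. In LP-1, 10 fell and none rose without DMSO replicate 1 or any 1 DHA replicate, and 14 fell and 1 rose without DMSO replicate 3. Without DMSO replicate 3, TAPBP, ERAP1 and NLRC5 fell (limma, adjusted p = 0.00019, 0.000784 and 0.00165). They were not called with all LP-1 libraries. In U266, 3 to 5 fell when 1 library was left out. In LP-1 the falls included those of HLA-F (-1.79) and PSMB8 (-1.45), and CANX rose by 0.50 (limma, adjusted p = 0.000371, 0.00503 and 0.0324; CANX 0.0597 to 0.103 without DMSO replicate 1 or any 1 DHA replicate). In U266 they included those of CALR (-0.72), PSMB8 (-0.68) and B2M (-0.24; limma, adjusted p = 2.65e-06, 1.91e-05 and 0.00417). Of the costimulation and adhesion genes, 1 of 2 tested fell in LP-1, and 1 fell and 1 rose of 5 in U266. CD58 fell in LP-1 (-0.71) and in U266 (-0.36), by limma with adjusted p = 0.00271 and 0.002. ICAM1 rose in U266 (0.49, limma adjusted p = 3.68e-05) and was not called in LP-1 (limma adjusted p = 0.0581). There its change was -0.63 under TMM-style scaling and -0.88 without DMSO replicate 3 (limma adjusted p = 0.0445 and 8.18e-05).

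Markers of other cell types were low in most libraries, and their part in the class II results was not tested. The summed FPKM of the 8 B cell markers was 1.21 to 1.44 with DHA and 2.68 to 4.25 with DMSO in LP-1, and 3.78 to 23.0 with DHA and 5.76 to 6.09 with DMSO in U266, DHA replicate 3 being the 23.0. CD79A, a B cell receptor chain gene, had 0.20, 0.26 and 0.37 FPKM with DHA, against 1.33, 1.65 and 1.06 FPKM with DMSO in LP-1, and fell by 0.87 on the log2 scale (limma, adjusted p = 0.00348). CD79A met the filter in LP-1 only through the DMSO libraries and was below it without any 1 of them. Its entry into the test thus favoured a fall. In U266 it was below the filter. ITGAX, listed for myeloid cells, had 11.6, 11.7 and 10.7 FPKM with DHA and 47.5, 51.0 and 28.99 FPKM with DMSO in LP-1 and fell there, while CD14, LYZ and CD163 were at most 0.12 FPKM and FCGR3A, FCER1A and CD1C at 0 in all LP-1 libraries. The myeloid sum in U266 was 1.08 to 10.7 FPKM with DHA and 0.979 to 1.62 FPKM with DMSO, and that of T and NK markers 1.82 to 6.87 FPKM with DHA and 2.08 to 2.76 FPKM with DMSO. T and NK markers in LP-1 summed to 0.04 to 0.12 FPKM with DHA and 0.19 to 0.45 FPKM with DMSO. CD8A, the only T and NK marker tested in U266, rose by 0.45 on the log2 scale (limma, adjusted p = 0.0473). It was not called under TMM-style or quantile scaling, or without DHA replicate 1 or any 1 DMSO replicate (limma adjusted p = 0.0515 to 0.160). CD79B, the only B cell marker tested in U266, was not called (-0.20, limma adjusted p = 0.183, and 0.0421 under quantile normalization). Without U266 DHA replicate 3, 9 of 10 class II members still fell. Of plasma cell markers, SDC1, which encodes CD138, fell in both lines, by 2.37 in LP-1 and 1.11 in U266 (limma, adjusted p = 4.93e-05 and 3.1e-07). In each line 4 of 7 tested fell, and 2 rose in LP-1. There 2 fell and 1 rose without any 1 DHA replicate, and 3 fell and 1 rose without DMSO replicate 1. Fewer of all LP-1 genes were also called in these runs. The shares over all tested genes were 20.2% fallen and 20% risen in LP-1, and 19.6% and 21.1% in U266.

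**Figure D5:**
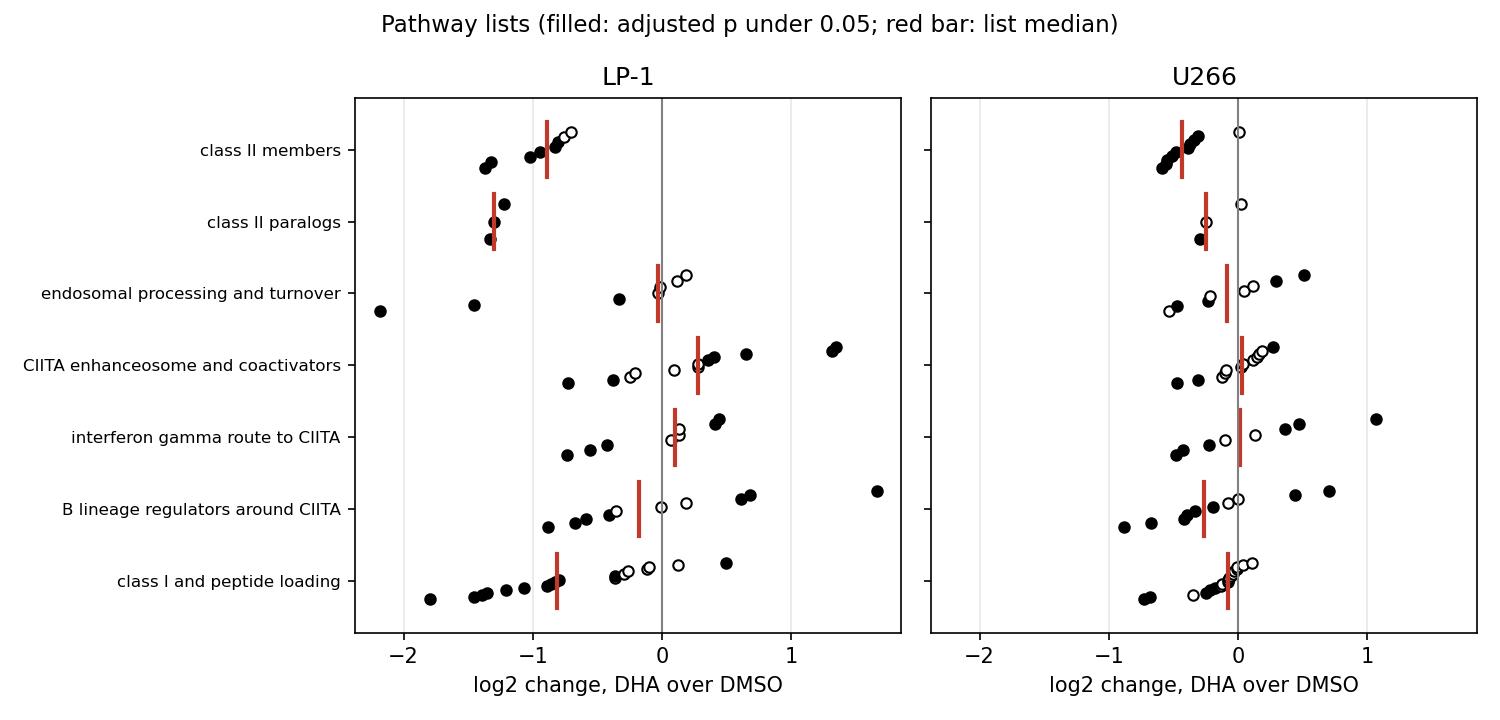
Log2 change, DHA over DMSO, of each tested gene (points, filled where the limma adjusted p was under 0.05) in the class II members and the lists around them, with the list median as a red bar, LP-1 left and U266 right. Class II members and class I genes have medians of -0.89 and -0.81 in LP-1, and -0.43 and -0.08 in U266.

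The genes whose profile over the 6 libraries of a line was most like that of CD74 (Pearson r on log2(FPKM + 1), a description over libraries that share the treatment contrast) were LZTS2 (0.9997), APOBEC3C (0.9988) and GSDMB (0.9986) in LP-1. There 1513 of 11455 genes had an r above 0.9. In U266 they were PIN4 (0.9885), RPL19 (0.9768) and RPL36AL (0.9733), and 45 of 10375 genes were above 0.9.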

How the data were processed

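RNA was sequenced from 12 libraries, 3 for each of DHA and DMSO in LP-1 and U266. The authors deposited FPKM in 1 table per line; per the labels' protocols, RNA came from an RNeasy kit and libraries from a SMARTER mRNA kit. The submitters' processing notes name the builds GRCm38 and mm10, which are mouse builds, while both tables hold human genes; no label names an aligner, a counting tool or an annotation. LP-1 rows carry Ensembl IDs (42054 of 61806 matched to a symbol) and U266 rows symbols (18689 of 19130 matched). Every library column was mapped by its name.

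From these FPKM, log2(FPKM + 1) was fitted with limma 3.58.1 in R 4.3.3 (empirical Bayes with a variance trend), each line alone, over genes at 1 FPKM or more in at least 3 of 6 libraries, two-sided, with Benjamini-Hochberg adjustment and a threshold of 0.05. The fit was tested on simulated data. Reads were recovered from FPKM and GENCODE v29 exon lengths (GRCh38); 88.5 to 89.5% of values in LP-1 and 93.7 to 94.6% in U266 came out whole within 0.1 read. Recovered read numbers are rounded, and intervals cover spread between libraries only. Among recovered values of 1 to 20 reads, 38.05 to 40.46% were even in the LP-1 libraries. In U266, 52.19% were even in DHA replicate 3 and 77.26 to 79.33% in the other libraries. What a recovered read stands for may thus differ between these libraries, which was not tested. No 2 replicates agreed within sampling noise (mean chi-square 1.75 to 82.1 per gene). Same-numbered DHA and DMSO libraries did not deviate together (correlations 0.024 to 0.183 in LP-1, -0.083 to -0.025 in U266), so numbers were not used as pairs.

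The members, lists, tests and motifs were chosen with earlier results of these data known. Named were all members, per list and line at most the 3 largest called rises and falls, further genes fixed by name, and the 3 genes most like CD74; cell type markers named as absent or raised were picked after their values were seen. Some genes that this rule names are not reported here. Lists were described by counts and medians, with no set test. Alternatives covered the pseudocount (0.1), no filter, a mean of 5 FPKM, TMM-style and quantile scaling, no variance trend, the replicate block, leaving out each library and 1 fit of all 12 libraries; voom on recovered reads was added after seeing the data. Promoter sequence came from RefSeq (GRCh38.p14). Figures were drawn with matplotlib 3.10.9.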

Additional observations from a re-analysis of the deposited data

Results flagged for a closer look

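The DHA effect on 6 members differed between the lines by the interaction contrast (LP-1 change minus U266 change, log2, limma with Benjamini-Hochberg adjustment over 8916 genes, where 34.5% were called). The difference was -0.82 for CD74 (LP-1 change -0.80, U266 change 0.01), -0.82 for HLA-DMB (-1.37 and -0.56), -0.78 for HLA-DMA (-1.33 and -0.54), -0.68 for HLA-DPB1 (-1.02 and -0.34), -0.52 for HLA-DPA1 (-0.83 and -0.30) and -0.44 for HLA-DRA (-0.95 and -0.51). Every DHA library lay below every DMSO library in both lines for each of these genes except CD74 in U266. The lines were in separate tables and their IC50 doses are not given, so line, dose and processing cannot be told apart.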

How the results depend on the processing

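Voom on recovered reads called 5100 genes in LP-1 and 4503 in U266. In LP-1, 5 to 7 members fell under every alternative run, against 6. In U266, 7 to 9 fell against 9, except that 4 did with all 12 libraries in 1 fit. The interaction was called for 4 to 7 members, against 6. Genes called in LP-1 numbered 5027, and 3034 with a mean of at least 5 FPKM, where fewer were tested. They numbered 2783 to 6745 when 1 library was left out: 2790, 2783 and 2852 without DHA replicates 1, 2 and 3, and 3253 without DMSO replicate 1. In U266 they numbered 4241, 2545 with all 12 libraries in 1 fit and 3417 to 4294 when 1 library was left out. Under the replicate block 7 members and 4559 genes were called in LP-1, HLA-DRB1 among them (adjusted p = 0.0477), and 9 members and 3891 genes in U266, although the numbers share no stated origin. HLA-DRB1 in LP-1 was also called with all 12 libraries in 1 fit (adjusted p = 0.0233). It was not called under the other alternatives, with a change of -0.42 without DMSO replicate 3 (limma adjusted p = 0.177). Some signs turned, of values not called in the main fit and of the HLA-DRA interaction, which was called. CD74 in U266 was -0.0148 under TMM-style scaling and ran between -0.0162 and 0.0559 when 1 library was left out, negative without DHA replicate 1 (-0.00483), DMSO replicate 1 or DMSO replicate 3 (-0.00298). The HLA-DRA interaction was -0.44 in the main fit (limma adjusted p = 0.0145) and 0.00176 under quantile normalization (limma adjusted p = 0.990). The CIITA interaction ran between -0.556 (without LP-1 DMSO replicate 3) and 0.179 (without LP-1 DMSO replicate 2), with 0.0163 without LP-1 DMSO replicate 1 and 0.0518 without U266 DHA replicate 3. The causes were not tested. HLA-DQA1 and HLA-DQB1 in LP-1 had 30 to 167 recovered reads and were under the filter. FPKM divides by 1 depth per library, so a change is relative to the other genes.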
